A study of Mus musculus with 35 samples.

Results

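Transcription was compared between medullary thymic epithelial cells (mTECs) of mice sorted as Tspan8-positive and as Tspan8-negative. The study sorted mTECs by FACS for 6 antigens, each sort giving a positive and a negative fraction. Labelled cRNA made from total RNA was hybridised to 35 Illumina bead arrays. The 6 arrays whose titles name Tspan8 are described here, 3 of Tspan8-positive cells and 3 of Tspan8-negative cells. Both groups are primary mTECs isolated by FACS, and neither carries a treatment or a named allele in the labels. The sorting reagent, gates, strain and age are not given in the sources used here. Arrays of a group are labelled as biological replicates without saying whether separate animals gave them, so p-values below measure only the spread between these arrays.

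Medullary thymic epithelial cells transcribe a wide range of genes that are otherwise restricted to single organs and display their products to developing T cells, so that self-reactive T cells are removed or turned into regulatory cells. The nuclear protein Aire drives part of this transcription, and single mTECs transcribe only subsets of such genes. Some mTECs resemble differentiated cells of other epithelia, such as cornifying keratinocytes, the chemosensory tuft cells of gut and airway, or the microfold cells that cover lymphoid follicles of the gut. Tspan8 is a tetraspanin, a membrane protein of a family that spans the membrane repeatedly, and is found mainly on epithelia of the digestive tract. The comparison asked which genes are transcribed together with it in mTECs.

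All values below are log2 signals after normalization, and a difference is Tspan8-positive minus Tspan8-negative cells, given with its standard error (SE) from limma. A probe was tested when its gene was named and it was detected, at a detection p under 0.05, on at least 2 arrays of either group. That left 23542 of 35667 named probes, which represented 15916 genes. Of 46089 probes, 25040 to 25352 were detected per Tspan8-positive array and 26765 to 27008 per Tspan8-negative array. Arrays of 1 group correlated at 0.989 to 0.991 (Pearson), and arrays of different groups at 0.893 to 0.912. Precision is limited by having 3 arrays in each group. In bulk RNA of this kind, fewer cells of a type and less RNA per cell cannot be told apart. Transcripts of the labelled cell type were present in both groups. Epcam, an epithelial adhesion molecule named after its values were seen, averaged 6.28 ± 0.11 in Tspan8-positive cells and 5.59 ± 0.15 in Tspan8-negative cells, and Krt14, a keratin of medullary and basal epithelium, averaged 13.19 ± 0.20 in Tspan8-positive cells and 13.33 ± 0.23 in Tspan8-negative cells (SD, n = 3 each).

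The sorted antigen itself separated the groups. Tspan8 gave 11.53, 11.88 and 11.82 in Tspan8-positive cells, against 6.52, 7.01 and 7.32 in Tspan8-negative cells. The 3 positive arrays lay far above the 3 negative ones, and the probe was detected on all 6. The difference was 4.80 (SE 0.15, limma adjusted p = 2.7e-16), a 27.8-fold higher signal (95% interval 22.3 to 34.6). The transcript was therefore also measurable in cells sorted as negative. Over the 12 sorted groups of the study, Tspan8 signal was highest in Tspan8-positive cells, at 11.74 ± 0.19 (SD, n = 3), followed by Cea1-positive cells at 11.02 ± 0.29 (n = 3). It was lowest in Gad1-negative cells, at 6.83 ± 0.0099 (n = 3), and in Tspan8-negative cells, at 6.95 ± 0.40 (n = 3), and the arrays of these low groups overlapped. In the order between them, Ins2-positive cells (9.95 ± 0.13, n = 3) overlapped with Gp2-positive cells (9.86 ± 0.68, n = 2).

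**Figure D1:**
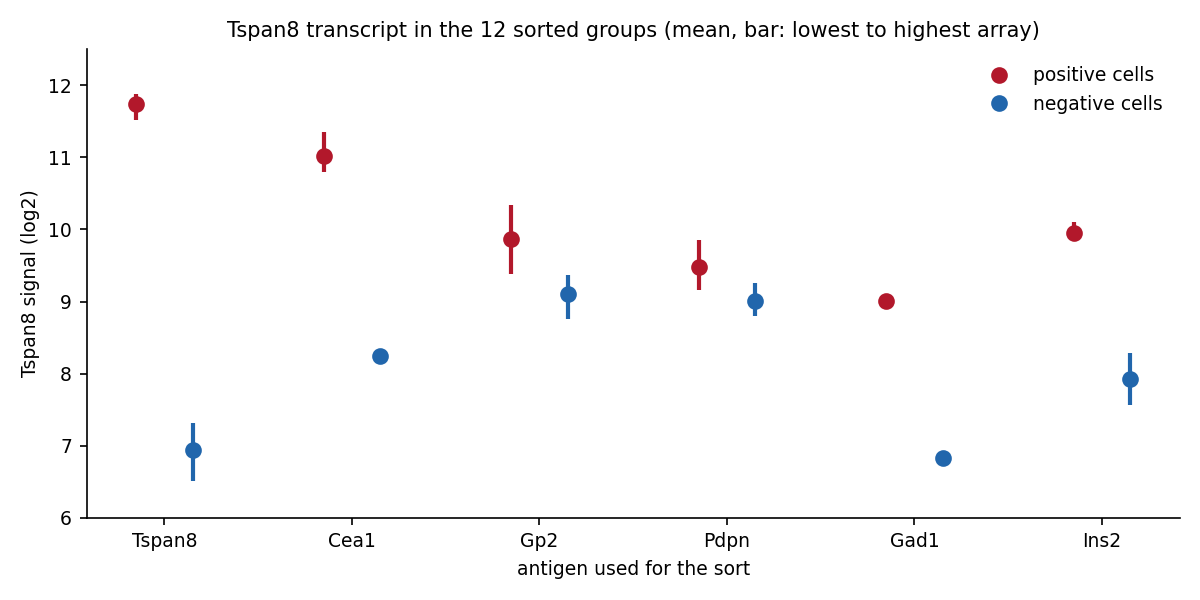
Tspan8 log2 signal (y axis) in cells positive (red) and negative (blue) for each antigen used in a sort (x axis). Dots are group means and bars run from the lowest to the highest array. Tspan8-positive cells had the highest mean, 11.74, and the Gad1-negative and Tspan8-negative cells the lowest.

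Among the other 5 antigens of the study, 2 were higher and 3 lower in Tspan8-positive cells. Gp2, a membrane protein of pancreatic zymogen granules and of microfold cells, reached 14.10, 14.12 and 14.25 in Tspan8-positive cells, against 11.13, 11.38 and 11.33 in Tspan8-negative cells. No array of 1 group overlapped the other, and the difference was 2.88 (SE 0.10, limma adjusted p = 1.5e-15). Ceacam1, an epithelial adhesion molecule taken here as the antigen labelled Cea1, reached 7.06, 7.13 and 6.86 in Tspan8-positive cells, against 4.73, 5.47 and 5.09 in Tspan8-negative cells, and the groups again did not overlap. It differed by 1.92 (SE 0.19, limma adjusted p = 1.7e-08). Pdpn, a mucin-like membrane glycoprotein, fell by 1.09 (SE 0.14, limma adjusted p = 9e-07). Gad1, which makes the transmitter GABA, fell by 2.24 (SE 0.14, limma adjusted p = 8e-12), and the insulin gene Ins2 fell by 1.24 (SE 0.15, limma adjusted p = 3.7e-07).

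The fractions differed broadly. With limma and an adjusted p under 0.05, 4046 genes were higher in Tspan8-positive cells (25.4% of those tested) and 4941 were lower (31.0%), so 56.5% of all genes were called in either direction and a call alone sets few genes apart. At least a 2-fold difference was asked for in a further count chosen after the data were seen. It left 1461 genes higher (9.18%) and 1831 lower (11.5%). The arrays of the groups did not overlap for 62.2% of genes (28.3% higher and 33.9% lower in Tspan8-positive cells), so a lack of overlap is also common. The median difference of all genes was -0.043. Where members of a group are counted below, the shares of 25.4% and 31.0% are what any list of tested genes would show at the average rate.

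The largest increases among genes detected in both groups included products of skin, airway and detoxification. Prss27, a membrane serine protease of squamous epithelium, gave 11.90, 11.61 and 12.01 in Tspan8-positive cells, against 6.62, 6.41 and 6.48 in Tspan8-negative cells, and the groups did not overlap. Its difference was 5.33 (SE 0.12, limma adjusted p = 3.3e-18). Cyp2b19, a cytochrome P450 of mouse epidermal keratinocytes, gave 11.30, 11.80 and 11.78 in Tspan8-positive cells, against 6.21, 6.29 and 6.48 in Tspan8-negative cells. All 3 positive arrays were above all 3 negative arrays, with a difference of 5.30 (SE 0.13, limma adjusted p = 7.4e-18). The GABA-A receptor subunit Gabrp rose by 5.16 (SE 0.12), and Krt6b, a keratin of activated and stratified epithelia, by 4.90 (SE 0.12). Enzymes of drug and lipid metabolism were among them. Cyp2d12 rose by 4.76, Cyp2f2, a cytochrome P450 of airway club cells, by 4.62, and the glutathione transferases Gsto1 and Gsta4 by 4.72 and 4.36. Atg9b, an autophagy membrane protein, rose by 4.82, the calcium-activated chloride channel regulator Clca1, a goblet cell product, by 4.27, and the homeobox gene Irx2 by 4.33. Psapl1, Kprp, a keratinocyte protein rich in proline, and Scgb3a2, a secretoglobin of the airway, rose by 4.66, 4.42 and 4.42. All 20 genes in this set had limma adjusted p-values of 1.5e-14 or below.

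The 12 largest decreases among genes detected in both groups held genes of cell division, hormones and the cytoskeleton. Tmsb10, an actin-sequestering thymosin, gave 8.43, 8.26 and 8.07 in Tspan8-positive cells, against 11.95, 12.04 and 12.31 in Tspan8-negative cells, without overlap. Its difference was -3.85 (SE 0.12, limma adjusted p = 1.4e-16). Pdyn, which encodes the opioid precursor prodynorphin, gave 7.48, 7.22 and 6.56 in Tspan8-positive cells, against 11.01, 10.86 and 10.79 in Tspan8-negative cells, again without overlap, and differed by -3.81 (SE 0.16, limma adjusted p = 3e-14). The kinases Cdk1 and Pbk, both active in mitosis, fell by 3.79 and 3.60, the cytokinesis scaffold Anln by 3.47 and the kinetochore protein Cenpw by 3.54. Of the 2 further Cdk1 probes, only 1 had the same sign. H2ac15 and H2ac12, replication-dependent histone H2A genes, fell by 3.79 and 3.68, and these near-identical genes can share signal. Crhbp, a binding protein of corticotropin-releasing hormone, fell by 3.68 and parathyroid hormone (Pth) by 3.61. The intermediate filament Vim fell by 3.57, and Phgdh, the first enzyme of serine synthesis, fell by 3.53.

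**Figure D2:**
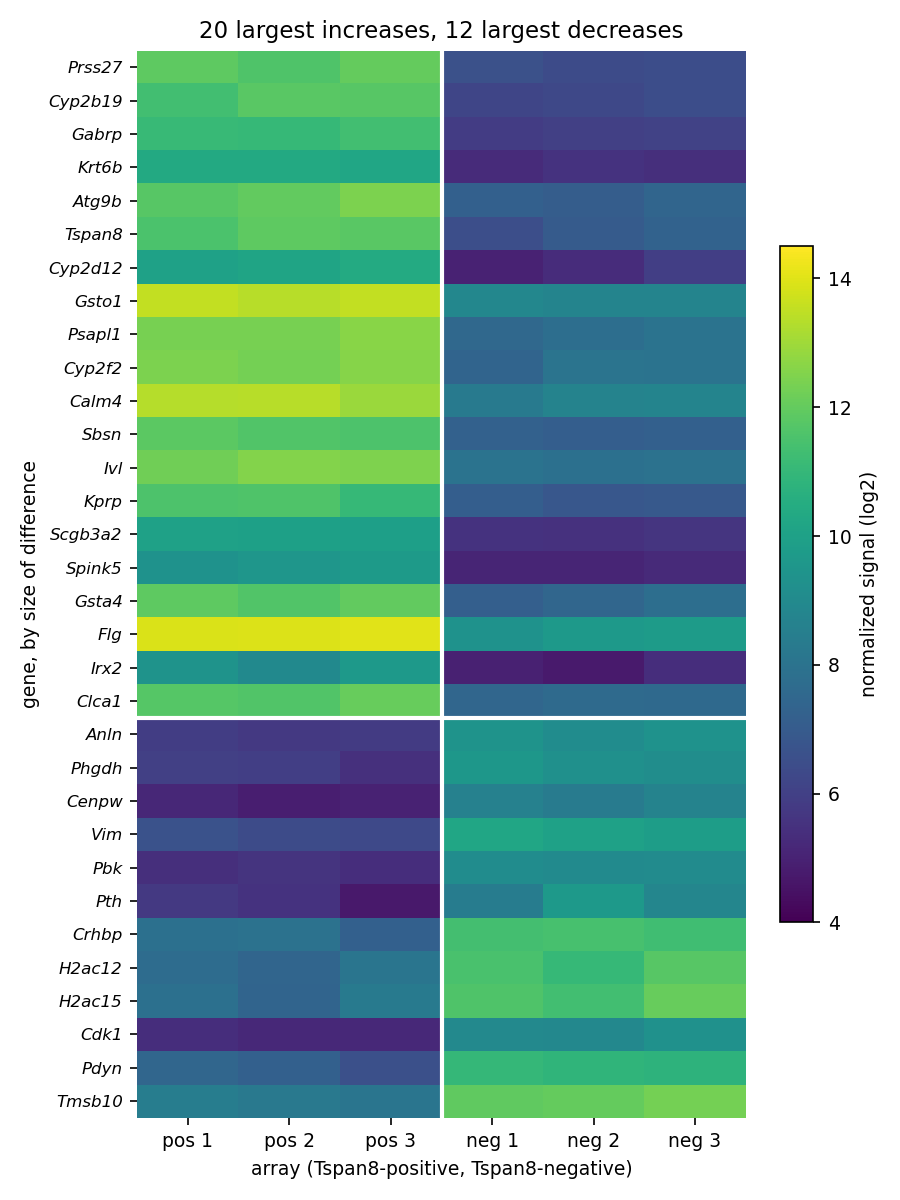
Log2 signal of the 20 largest increases (upper block) and 12 largest decreases (lower block) on each array, Tspan8-positive arrays on the left and Tspan8-negative arrays on the right. Each line of cells is a gene and colour gives the signal. No gene overlaps between the groups, which was part of how these genes were chosen.

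Further genes were measured above background in just 1 of the groups, so their difference is a lower bound. Lypd5, a Ly6 family membrane protein, was not detected on any Tspan8-negative array and was at least 7.00-fold higher in Tspan8-positive cells. The potassium channel Kcnj16 was at least 6.99-fold higher, the transcriptional cofactor Vgll3 at least 5.72-fold higher, and the glucuronosyltransferase Ugt2b34 at least 5.34-fold higher. In the other direction, the chemokine Ccl1 was undetected on all Tspan8-positive arrays and was at least 8.46-fold lower there, the neuropeptide Vip at least 7.70-fold lower, Troap at least 7.28-fold lower and Tshb, the beta subunit of thyroid-stimulating hormone, at least 4.77-fold lower. The bound sets each undetected array at the lowest detected signal on it, or its own signal if that was higher.

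Genes of the cornified layer of skin formed the strongest increase. Of 29 measured members of a cornified keratinocyte list, 25 were higher and 1 lower, against the background of 25.4% and 31.0%, and the median difference was 3.16. Cornification replaces a keratinocyte's membrane by a shell of cross-linked proteins, among them involucrin, loricrin and, as a lesser part, filaggrin. Ivl, which encodes involucrin, gave 12.22, 12.54 and 12.46 in Tspan8-positive cells, against 8.01, 7.89 and 7.96 in Tspan8-negative cells. The groups were separated by several log2 units, with a difference of 4.45 (SE 0.11, limma adjusted p = 4.5e-18). Flg, which encodes filaggrin, the bundler of keratin filaments, gave 13.89, 13.95 and 14.02 in Tspan8-positive cells, against 9.34, 9.67 and 9.78 in Tspan8-negative cells, again with no overlap. It rose by 4.36 (SE 0.11) and Lor, which encodes loricrin, by 3.45 (SE 0.10). Calm4, a calmodulin-like protein of skin, rose by 4.61, the secreted protein Sbsn by 4.50 and Spink5, an inhibitor of skin serine proteases, by 4.39. Of members chosen after their values were seen, the cross-linking enzyme Tgm1 rose by 3.52, the corneodesmosome protein Cdsn by 3.65, the keratins Krt10 and Krt1 of suprabasal skin by 3.37 and 2.78, and the protease Casp14 by 2.52. Not every member followed: the cornified envelope protein Sprr3, also picked afterwards, fell by 0.70 (SE 0.18, limma adjusted p = 0.0023) and was detected on 1 of 3 positive arrays, while Lce3c (difference -0.061, adjusted p = 0.75) and the skin protease Klk5 (-0.11, adjusted p = 0.49) did not pass the limma test.

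The promoters of the sorted gene and of these 3 envelope genes are shown because the envelope genes moved together. Each line gives 300 bases of RefSeq GRCm38.p6, from 250 bases before the annotated start to 50 after it, in the direction of transcription, with motif matches in capitals. The Tspan8 sequence lies at chr10:115817034-115817333, plus strand, Ivl at chr3:92573686-92573985, minus strand, Flg at chr3:93273296-93273595, plus strand, and Lor at chr3:92083093-92083392, minus strand.
Tspan8: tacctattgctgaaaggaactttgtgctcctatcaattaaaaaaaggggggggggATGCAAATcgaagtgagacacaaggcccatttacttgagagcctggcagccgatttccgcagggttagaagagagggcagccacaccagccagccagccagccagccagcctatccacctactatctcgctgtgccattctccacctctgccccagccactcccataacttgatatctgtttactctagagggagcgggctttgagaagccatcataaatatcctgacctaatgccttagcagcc
Ivl: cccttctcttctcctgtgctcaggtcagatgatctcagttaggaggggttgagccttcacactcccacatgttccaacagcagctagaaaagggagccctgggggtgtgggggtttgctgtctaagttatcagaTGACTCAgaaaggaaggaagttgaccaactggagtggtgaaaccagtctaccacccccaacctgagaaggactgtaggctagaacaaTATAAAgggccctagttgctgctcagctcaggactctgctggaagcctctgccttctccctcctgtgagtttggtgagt
Flg: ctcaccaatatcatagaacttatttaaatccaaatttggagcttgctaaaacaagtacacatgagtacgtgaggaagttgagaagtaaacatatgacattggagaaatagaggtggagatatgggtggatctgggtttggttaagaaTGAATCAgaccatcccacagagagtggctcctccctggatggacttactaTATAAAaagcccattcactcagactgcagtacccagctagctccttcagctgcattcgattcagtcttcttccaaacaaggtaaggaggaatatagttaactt
Lor: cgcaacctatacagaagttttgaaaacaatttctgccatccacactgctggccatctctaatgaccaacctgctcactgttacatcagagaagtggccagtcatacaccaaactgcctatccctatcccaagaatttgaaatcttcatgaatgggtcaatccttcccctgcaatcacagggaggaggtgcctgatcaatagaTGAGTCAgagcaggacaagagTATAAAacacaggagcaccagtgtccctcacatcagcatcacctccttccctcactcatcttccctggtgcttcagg
Capitals mark matches to TGANTCA, ATGCAAAT (the octamer site of POU factors), TATAAA (the TATA box) and AACCNGTT (the site of Grainyhead-like factors). TGANTCA is a loose form of the site of AP-1 factors such as Fos and Jun, with any base allowed at N. Its match read TGACTCA in Ivl, TGAATCA in Flg and TGAGTCA in Lor. Both strands were searched, and none of the matches shown overlap. Positions count from the annotated start, whose own base is 0. In Ivl a TGANTCA match began at position -116 and a TATAAA match at -29, in Flg at -103 and -53, and in Lor at -48 and -27. The Tspan8 promoter held an ATGCAAAT match at position -195 and none of the other motifs in this window. Over 23 list members with a RefSeq promoter, 10 held TGANTCA (43.5%) and 11 held TATAAA (47.8%), against 7.93% and 14.2% of 27025 promoters of all genes. For the 24 promoters of tuft cell list members the counts were 2 (8.33%) and 1 (4.17%), and for 10 promoters of airway list members they were 2 (20%) and 3 (30%). AACCNGTT was in 0 of the 23 cornified keratinocyte promoters, against 2.01% of all, and ATGCAAAT in 1 of them (4.35%), against 1.75% of all. These are letter matches and do not show that a factor bound there.

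**Figure D3:**
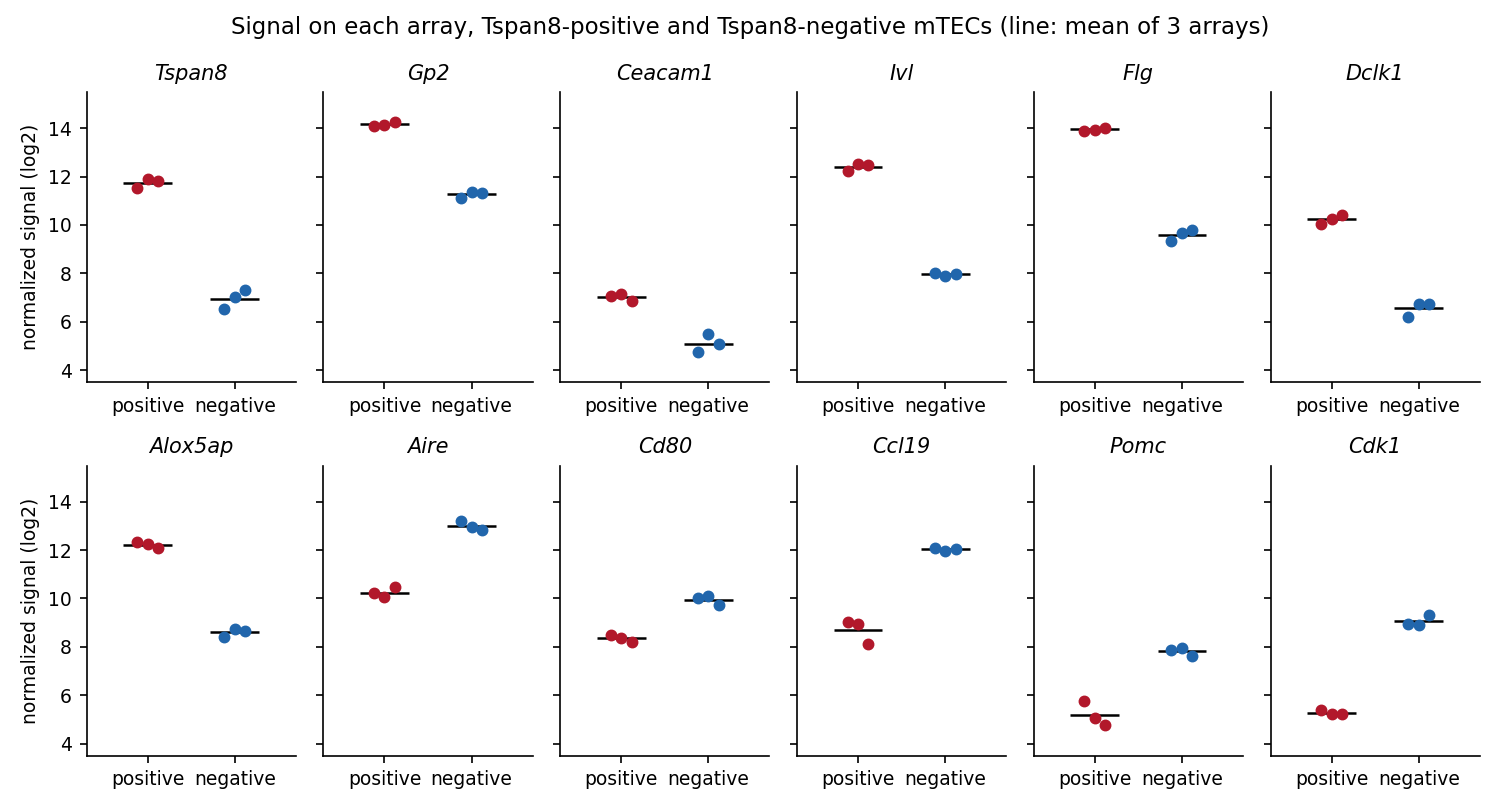
Log2 signal (y axis) of 12 genes on each array, with the 3 Tspan8-positive arrays (red) left of the 3 Tspan8-negative arrays (blue) and a line at each group mean. Tspan8, Gp2, Ceacam1, Ivl, Flg, Dclk1 and Alox5ap were higher, and Aire, Cd80, Ccl19, Pomc and Cdk1 lower, in Tspan8-positive cells, with no overlap in any panel.

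Tuft cell genes rose as well. Tuft cells sense luminal signals through taste-receptor signalling and make eicosanoids, acetylcholine and interleukin 25. Of 27 measured members, 25 were higher and 1 lower, with a median difference of 2.34. Dclk1, a kinase used to mark tuft cells, gave 10.04, 10.24 and 10.43 in Tspan8-positive cells, against 6.21, 6.74 and 6.71 in Tspan8-negative cells, without overlap. Its difference was 3.68 (SE 0.14, limma adjusted p = 6.9e-15). Sh2d6 and Sh2d7, adaptor proteins with SH2 domains, rose by 4.14 and 3.75, and the exchange factor Vav1 by 3.24. Alox5ap, which presents arachidonic acid to the leukotriene-making enzyme Alox5, gave 12.32, 12.25 and 12.10 in Tspan8-positive cells, against 8.43, 8.75 and 8.66 in Tspan8-negative cells. No arrays overlapped, and it rose by 3.61 (SE 0.11). The following members were picked after their values were seen. In the signalling cascade, the cation channel Trpm5 rose by 2.91, phospholipase Plcb2 by 2.48 and the taste G protein Gnat3 by 1.35. Among products, Alox5 rose by 2.76, Ltc4s, which makes leukotriene C4, by 1.90, Chat, which makes acetylcholine, by 2.61, and Il25 by 2.34. Pou2f3, the transcription factor on which tuft cells depend, rose by 0.69 (SE 0.17, limma adjusted p = 0.0015) and was detected on 3 positive arrays and 1 negative array. The fatty acid receptor Ffar3 fell by 0.68, and the transcription factor Ascl2 did not pass the test (difference 0.26, limma adjusted p = 0.26).

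Most airway genes were higher in Tspan8-positive cells. On the airway list 13 of 15 members were higher and 2 lower, with a median difference of 2.68. The lectin Reg3g, which is also on the enterocyte list below, sits at that median. The antimicrobial iron binder Ltf gave 14.15, 14.11 and 14.60 in Tspan8-positive cells, against 10.02, 10.04 and 10.17 in Tspan8-negative cells, without overlap between groups, and rose by 4.21 (SE 0.12). Scgb1a1, the main secretoglobin of club cells, rose by 3.10 and the airway defence protein Bpifa1 by 3.35. Of members picked afterwards, the water channel Aqp5 rose by 3.99 and the collectins Sftpd and Sftpa1 by 2.88 and 1.27, whereas the alveolar surfactant protein Sftpc fell by 0.77 with overlapping arrays. Sftpb, another surfactant protein, was undetected on all Tspan8-positive arrays and at least 1.30-fold lower there.

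Microfold and goblet cell genes were mixed, with more members higher than lower. On the microfold cell list 7 of 12 members were higher and 2 lower, with a median difference of 1.28. The peptidoglycan-binding protein Pglyrp1 gave 12.33, 12.40 and 12.36 in Tspan8-positive cells, against 9.88, 10.06 and 10.09 in Tspan8-negative cells, without overlap, and rose by 2.36. The chemokines Ccl9 and Ccl20 rose by 1.72 and 1.27, and Tnfaip2 by 1.33. Spib, the transcription factor that microfold cells need, was 8.72 ± 0.11 in Tspan8-positive cells and 8.84 ± 0.25 in Tspan8-negative cells (SD, n = 3 each) and did not pass the test (difference -0.12, limma adjusted p = 0.44). On the list of mucins, trefoil factors and goblet cell genes 11 of 16 members were higher and 4 lower, with a median of 0.65. Spdef, the goblet cell transcription factor, rose by 2.30, the trefoil factor Tff3 by 1.52 and Spink4 by 1.32. Gkn2, a product of gastric surface cells, fell by 2.11, and Gkn1, named after its values were seen, by 1.43.

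Enterocyte genes showed no common direction. On that list 11 of 23 members were higher and 8 lower, with a median of 0.17. The glucose transporter Slc5a1 rose by 3.04 (SE 0.16), the antimicrobial lectins Reg3g and Reg3b by 2.68 and 2.40, the membrane mucin Muc13 by 2.11 and the lectin Lgals4 by 2.04. Picked afterwards, the urea cycle enzyme Cps1 fell by 1.59 and the lectin Reg3a by 1.47. Krt20, a keratin of mature gut epithelium, did not pass the test (difference -0.20, limma adjusted p = 0.14).

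Transcription factors of epithelial lineages were more often higher than lower. Of 31 measured factors, 15 were higher and 5 lower, with a median of 0.37. Grhl1, a Grainyhead-like factor of differentiating epidermis, gave 11.32, 11.06 and 10.95 in Tspan8-positive cells, against 8.29, 8.54 and 8.59 in Tspan8-negative cells, without overlap, and rose by 2.64 (SE 0.12). Elf3, an ETS factor of mucosal epithelia, rose by 2.09, Klf5 by 2.06 and Klf4, which is needed for the skin barrier, by 1.51. Insm1, a zinc finger factor of endocrine cells, gave 9.14, 9.19 and 8.70 in Tspan8-positive cells, against 11.27, 11.35 and 11.32 in Tspan8-negative cells, and no array overlapped. It fell by 2.31 (SE 0.12, limma adjusted p = 5.7e-13). Named after their values were seen, the intestinal factors Cdx1 and Cdx2 fell by 1.58 and 0.77, the endocrine factor Neurog3 by 1.31, and the hepatocyte and gut factor Hnf4a rose by 0.67. Foxn1, the thymic epithelial factor and likewise picked afterwards, had a difference of -0.34 and did not pass (limma adjusted p = 0.11).

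Other tetraspanins did not move as a family. On the list of tetraspanins and proteins that bind Tspan8, 7 of 19 members were higher, Tspan8 included, and 4 lower, with a median of 0.22. Tspan6 gave 10.43, 10.78 and 10.58 in Tspan8-positive cells, against 7.22, 7.49 and 7.52 in Tspan8-negative cells, without overlap, and rose by 3.18 (SE 0.12). Tspan1 rose by 2.75, while Cd81 and Cd63, widely expressed tetraspanins of exosomes, fell by 0.88 and 0.83. Cd9 (difference 0.22, limma adjusted p = 0.079) and Cd82 (0.20, adjusted p = 0.14) did not pass.

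**Figure D4:**
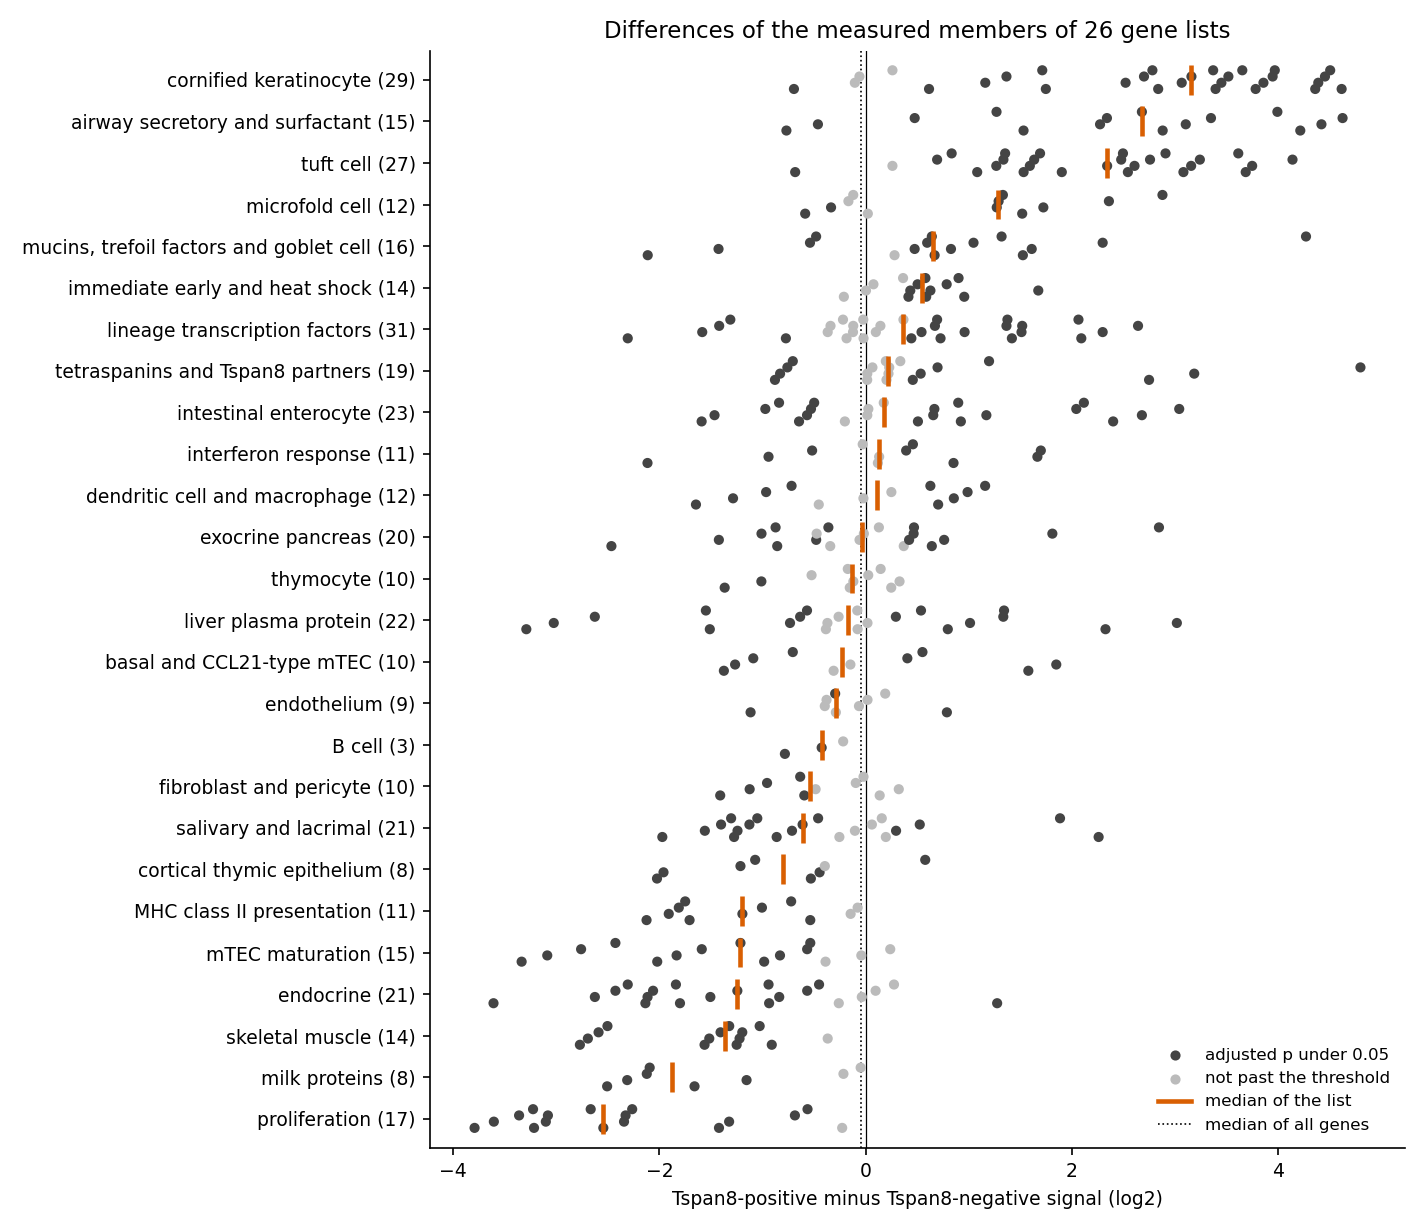
Difference of each measured member (dots; dark where the adjusted p was under 0.05) of 26 gene lists, Tspan8-positive minus Tspan8-negative log2 signal (x axis), with list medians in orange and the number of measured members in brackets. Medians ran from 3.16 for the cornified keratinocyte list to -2.54 for the proliferation list, and the dotted line marks the median of all genes, -0.043.

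The genes of Aire-bearing, mature mTECs were lower in Tspan8-positive cells. Of 15 measured members of the maturation list, 12 were lower and 0 higher, with a median of -1.21. Aire gave 10.21, 10.05 and 10.47 in Tspan8-positive cells, against 13.19, 12.98 and 12.83 in Tspan8-negative cells. The groups did not overlap, and Aire fell by 2.76 (SE 0.12, limma adjusted p = 2.7e-14), a 6.77-fold lower signal (95% interval 5.72 to 8.01). Fezf2, the other known regulator of tissue-restricted antigens in mTECs, was 13.00, 12.80 and 12.91 in Tspan8-positive cells, against 13.46, 13.48 and 13.47 in Tspan8-negative cells. It fell by 0.57 (SE 0.097, limma adjusted p = 3.9e-05), though again without overlap. The T cell costimulators Cd80 and Cd86 fell by 1.59 and 2.02, and Cd40, the receptor through which T cells drive mTEC growth, by 2.43. The chemokines Ccl19 and Ccl17, which attract dendritic cells and T cells, fell by 3.34 and 3.09. Cd274, which encodes the inhibitory ligand PD-L1 (difference 0.24, limma adjusted p = 0.088), and Tnfrsf11a, the receptor RANK (-0.043, adjusted p = 0.78), did not pass.

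MHC class II genes fell unevenly. Of 11 measured genes 9 were lower and 0 higher, with a median of -1.20. Ciita, the transactivator of these genes, gave 8.49, 8.45 and 8.40 in Tspan8-positive cells, against 10.54, 10.53 and 10.64 in Tspan8-negative cells, without overlap, and fell by 2.12 (SE 0.10). The peptide-loading chaperones H2-DMa and H2-DMb2 fell by 1.71 and 1.75, and their modulators H2-Oa and H2-Ob by 1.81 and 1.91. The antigen-presenting chain H2-Aa fell by 0.72 (SE 0.11). H2-Ab1 and the invariant chain Cd74 differed by -0.078 (limma adjusted p = 0.57) and -0.15 (0.26) and did not pass. Both lay near the top of the signal scale. H2-Ab1 averaged 14.55 in Tspan8-positive and 14.63 in Tspan8-negative cells, and Cd74 14.40 and 14.55. Differences between such bright signals can be compressed, which was not tested. Beside these lists, dendritic cell and macrophage markers had a summed linear signal of 1871 to 2127 in Tspan8-positive cells and 2980 to 3629 in Tspan8-negative cells, with Clec9a and Flt3 undetected on all 6 arrays, and their part in these decreases was not tested. On that list 5 of 12 members were higher and 4 lower, with a median of 0.11, which was -0.13 without Tspan8-positive replicate 3. The myeloid lysozyme Lyz2 and the macrophage receptor Adgre1 fell by 1.29 and 1.65, whereas the antibody receptor Fcgr3 rose by 1.16. Lyz2 averaged 9.74 in Tspan8-positive and 11.03 in Tspan8-negative cells, and this 1 gene makes up much of the summed signal and of its gap.

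Basal and CCL21-type mTEC markers had no common direction. On that list 4 of 10 members were higher and 4 lower, with a median of -0.23. Krt5 and Krt15, keratins of basal cells, rose by 1.85 and 1.58, while the T cell chemokine Ccl21a fell by 1.37 and the hemidesmosome collagen Col17a1 by 1.27. Markers of cortical thymic epithelium were mostly lower, 6 of 8 against 1 higher, with the spermatid- and thymus-associated gene Tbata falling by 1.96 and the costimulatory molecule Cd83 by 2.02. Their median difference was -0.80, and their summed linear signal was 2751 to 4081 in Tspan8-positive cells and 9821 to 10893 in Tspan8-negative cells. Bright members weigh most in that sum, and Tbata averaged 10.61 in Tspan8-positive and 12.57 in Tspan8-negative cells. Of members picked afterwards, Prss16 was dim, at 4.98 and 5.51, Ctsl was the member that rose, by 0.58, and Psmb11 was left out by the detection rule. A change in the share of cortical cells was not tested.

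Hormone, milk and muscle genes fell in Tspan8-positive cells. On the endocrine list 16 of 21 members were lower and 1 higher, with a median of -1.24. Parathyroid hormone gave 5.76, 5.54 and 4.72 in Tspan8-positive cells, against 8.40, 9.63 and 8.82 in Tspan8-negative cells, without overlap, and is part of the 12 largest decreases above. Calca, which encodes calcitonin, fell by 2.43, the gut hormone Pyy by 2.14 and somatostatin (Sst) by 2.11. Picked afterwards, the pituitary precursor Pomc fell by 2.63, and Iapp, a hormone of pancreatic islets, was the exception, higher by 1.27 (SE 0.17, limma adjusted p = 2e-06). Ghrelin (Ghrl) did not pass (difference -0.038, limma adjusted p = 0.87).

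No milk or skeletal muscle gene of the lists was called higher. Of 8 milk protein genes 6 were lower and 0 higher, with a median of -1.88. Csn2, which encodes beta-casein, gave 10.57, 10.59 and 10.59 in Tspan8-positive cells, against 12.74, 12.64 and 12.74 in Tspan8-negative cells, with no overlap, and fell by 2.12 (SE 0.093), and the whey protein Wap fell by 2.31. Of 14 skeletal muscle genes 13 were lower and 0 higher, with a median of -1.36. The embryonic and perinatal myosins Myh3 and Myh8 fell by 2.77 and 2.69, and the light chain Myl1 by 2.50. Ttn fell by 2.59, but of 5 further Ttn probes only 3 had that sign. Myogenin (Myog), the muscle transcription factor, had a difference of -0.37 and did not pass (limma adjusted p = 0.069).

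Exocrine and liver genes went in both directions. On the exocrine pancreas list 7 of 20 members were higher and 7 lower, with a median of -0.039. The trypsin inhibitor Spink1 gave 14.01, 13.99 and 14.14 in Tspan8-positive cells, against 11.06, 11.23 and 11.32 in Tspan8-negative cells, without overlap, and rose by 2.84, and the lipase-related protein Pnliprp2 rose by 1.81. The elastase Cela3b fell by 2.46, whereas Cela2a did not pass (difference -0.018, limma adjusted p = 0.91). On the liver plasma protein list the counts were 8 of 22 higher and 8 lower, with a median of -0.17. The haemoglobin-binding protein Hp rose by 3.02 and the antiprotease Serpina1b, one of a family of similar copies, by 2.32, while the apolipoprotein Apoa2 fell by 3.29, Itih3 by 3.02 and the fibrinogen chain Fgg by 2.63. Salivary and lacrimal genes were more often lower, 12 of 21 against 4 higher, with a median of -0.61. The demilune protein Dcpp1 fell by 1.97 and the kallikrein Klk1b8 by 1.56. Prom2 rose most on this list, by 2.26, and Klk1b16 rose by 1.88. These Klk1b genes are near-identical copies whose probes may cross-hybridise.

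Cell division genes fell most of all lists. Of 17 measured members, 16 were lower and 0 higher, with a median of -2.54. Plk1, a mitotic kinase, gave 5.70, 5.69 and 5.68 in Tspan8-positive cells, against 8.95, 8.72 and 9.08 in Tspan8-negative cells, without overlap, and fell by 3.22 (SE 0.14). Cdc20, which activates the anaphase-promoting complex, fell by 3.36 and the replication helicase subunit Mcm5 by 2.54. Picked afterwards, the proliferation marker Mki67 fell by 2.67 and topoisomerase Top2a by 3.10. The sliding clamp Pcna did not pass (difference -0.23, limma adjusted p = 0.33).

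Markers of other cell types and of handling are given for the same arrays. Fibroblast and pericyte markers had a summed linear signal of 972 to 1025 in Tspan8-positive cells and 1770 to 2210 in Tspan8-negative cells, 5 of 10 were lower and 0 higher, and the median difference was -0.54. The matrix protein Dcn fell by 1.12 and the pericyte gene Rgs5 by 1.41, and their part in the fall of Vim was not tested. Thymocyte markers summed to 1488 to 1836 in Tspan8-positive cells and 1603 to 2059 in Tspan8-negative cells, with Cd8a, Rag2 and Themis undetected on all 6 arrays. Cd8b1 and Bcl11b, picked afterwards, make up much of that sum. Cd8b1 averaged 9.57 in Tspan8-positive and 9.54 in Tspan8-negative cells, and Bcl11b 8.77 and 8.62. The T cell receptor subunits Cd3d and Cd3g were the 2 of 10 members that were lower, and fell by 1.37 and 1.01, while the list median was -0.14. Endothelial markers summed to 981 to 1062 in Tspan8-positive cells and 1050 to 1125 in Tspan8-negative cells, with 1 higher and 2 lower of 9, a median of -0.29 and Emcn undetected on all 6 arrays. Of 3 B cell markers 2 were lower, with a median of -0.43 and a summed linear signal of 450 to 464 in Tspan8-positive cells and 546 to 585 in Tspan8-negative cells. Of 14 immediate early and heat shock genes, 10 were higher and 0 lower, with a median of 0.54. Probes did not all follow. Another probe of the member Hspa1b, used in the fit with the Cea1 sort, fell by 0.76 there (limma adjusted p = 0.019). Egr2 rose by 1.67 and Fos by 0.90, while Jun did not pass (difference 0.0027, limma adjusted p = 0.98). The part of these genes in the other differences was not tested. Interferon-induced genes were split, 5 higher and 3 lower of 11, with a median of 0.13. Irf7, the regulator of the interferon response, rose by 1.70 and the chemokine Cxcl10 fell by 2.12.

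The sort for Cea1, in which Tspan8 also rose (4.80 in the Tspan8 sort and 2.78 in the Cea1 sort), shared no arrays with the sort for Tspan8 and was compared with it directly. The difference between both sorts' effects was tested with limma over 16904 genes. It was higher in the Tspan8 sort for 1035 genes (6.12%) and lower for 1607 (9.51%), so 39.2% of the called genes were higher. Median scaling moved the median of all genes by 0.15 and the share higher to 56.0%, so differences between sorts near that size have no settled direction. The difference for Tspan8 itself was 2.02 (SE 0.30, limma adjusted p = 6.3e-06), and for Ceacam1 it was -2.86 (SE 0.34, limma adjusted p = 2.5e-07).

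The rise of keratinocyte genes over the negative fraction was larger in the Tspan8 sort, and that of tuft cell genes in the Cea1 sort. On the cornified keratinocyte list 23 of 29 members had a higher effect in the Tspan8 sort and 0 a lower one, with median effects of 3.16 in the Tspan8 sort and 1.44 in the Cea1 sort. Ivl rose by 4.45 with Tspan8 and by 1.80 with Cea1, a difference of 2.65 (SE 0.22, limma adjusted p = 5.2e-10). On the tuft cell list 18 of 28 members had a lower effect in the Tspan8 sort and 0 a higher one, with median effects of 2.12 in the Tspan8 sort and 4.31 in the Cea1 sort. Gnat3 rose by 1.35 with Tspan8 and by 6.33 with Cea1, a difference of -4.98 (SE 0.39, limma adjusted p = 2.1e-10). Gnat3 averaged 9.22 in Tspan8-positive and 11.19 in Cea1-positive cells, and 7.87 and 4.86 in the matching negative cells. Trpm5, picked afterwards, averaged 10.09 and 10.57 in the positive cells, and 7.18 and 4.15 in the negative cells. A larger effect in a sort therefore does not by itself mean more transcript in its positive cells. Dclk1 rose by 3.68 with Tspan8 and by 4.32 with Cea1, and the difference, -0.64 (SE 0.32, limma adjusted p = 0.2), did not pass. Aire fell by 2.76 with Tspan8 and by 0.96 with Cea1, a difference of -1.80 (SE 0.21, limma adjusted p = 1.7e-07). On the endocrine list 13 of 22 members had a lower effect in the Tspan8 sort, with median effects of -1.09 in the Tspan8 sort and 0.065 in the Cea1 sort.

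**Figure D5:**
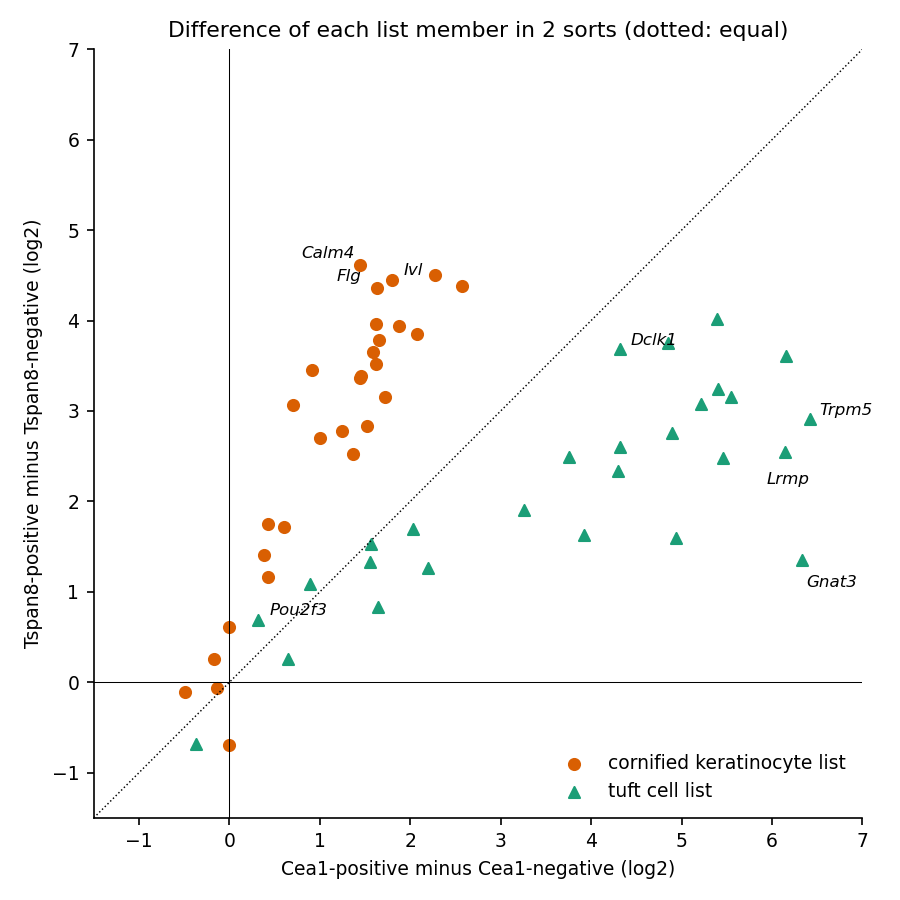
Difference of each member of the cornified keratinocyte list (orange dots) and the tuft cell list (green triangles) in the Tspan8 sort (y axis) and the Cea1 sort (x axis), positive minus negative log2 signal; the dotted line marks equal differences. Keratinocyte members lie mostly above the line and tuft cell members mostly below it, with Gnat3 at 1.35 in the Tspan8 sort and 6.33 in the Cea1 sort.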

How the data were processed

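Biotin-labelled cRNA from total RNA was hybridised to Illumina mouse bead arrays, per the labels' protocols. The deposited unnormalized table holds a bead intensity and a detection p-value for 46089 probes per array, per the file headers. Their lowest intensities, 65.2 to 84.0, show no background subtraction. The authors also deposited a table of normalized intensities on a linear scale; their method, scanner and software are not given in the sources used here. The deposited tables name probes differently, so probes were linked by their values over 34 arrays. All 46089 were linked, with a median ratio of nearest to next-nearest distance of 0.0363. On an array kept out of the linking, values and detection p-values ranked alike (Spearman 0.989, and 0.000802 with shuffled links). That array was Ins2-negative, and its unnormalized intensity column held detection p-values, so it was left out of the normalization and the tests. GEO's annotation of the platform named 1 gene for 35667 probes and no gene for 10422, and never several (0 probes). Names were brought up to date through RefSeq GRCm38.p6 (28519 by gene identifier, 2634 by accession).

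Signals were background-corrected, quantile-normalized and set on a log2 scale with neqc (offset 16) of limma 3.58.1 in R 4.3.3, on 34 arrays. The 6 Tspan8 arrays were fitted with lmFit and eBayes (trend), 4 residual degrees of freedom before moderation, and adjusted by Benjamini and Hochberg over 23542 probes with a threshold of 0.05. Each gene is its kept probe with the highest mean. Of 160 called genes named by rule, 61 had further kept probes, all of the same sign in 59. The difference from the Cea1 sort was a contrast in a fit of 12 group means, where a gene is its probe with the highest mean over both sorts. The test was also run on simulated data of 23542 probes, with 100 probes changed by 1 and 100 by 2 on the log2 scale. It recovered 71% of differences of 1 and 99% of differences of 2, with 8 false calls. A far larger share was called in the real data, so these rates do not carry over to it. Alternatives changed the background correction, normalization, source of values, detection filter, probe choice, arrays in the fit, weights and replicate block, or left out each array.

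The members, lists and tests were chosen with earlier results of these data known. Named genes are the 6 antigens, the 20 largest increases and 12 largest decreases without overlap, up to 6 genes each way undetected in 1 group, Aire, Fezf2, Cd80, H2-Aa, Ccl21a, Ivl and Dclk1, per list the 5 smallest adjusted p and up to 2 brightest members not called, and the 5 largest differences each way from the Cea1 sort. Provisional names and immune receptor segments were left out of the largest changes. Lists were described without a set test, and some genes are on more than 1 list, so the lists are not independent. Figures and tables used Python 3.11.15, NumPy 2.4.6, SciPy 1.17.1, pandas 2.3.3 and matplotlib 3.10.9.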

Additional observations from a re-analysis of the deposited data

Results flagged for a closer look

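The genes below had effects in the Tspan8 sort and in the Cea1 sort that differed by the limma test of the difference itself, and were the 5 with the largest difference in each direction. Each value is the Tspan8 effect minus the Cea1 effect on the log2 scale, with n = 3 arrays per group. Cyp2b19 changed by 5.30 in the Tspan8 sort and 1.60 in the Cea1 sort, a difference of 3.70 (SE 0.31, limma adjusted p = 5.2e-10). Calm4 changed by 4.61 and 1.45, a difference of 3.17 (SE 0.28, limma adjusted p = 1.3e-09), and Irx2 by 4.33 and 1.24, a difference of 3.10 (SE 0.37, limma adjusted p = 2.6e-07). The bile acid and steroid sulfate transporter Slc10a6 changed by 3.98 with Tspan8 and 1.01 with Cea1, a difference of 2.97 (SE 0.34, limma adjusted p = 1.5e-07). The keratin Krt77 was at 3.46 with Tspan8 and at 0.51 with Cea1, where it did not pass (limma adjusted p = 0.21), a difference of 2.96 (SE 0.42, limma adjusted p = 3.4e-06).

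In the other direction, Gnat3 changed by 1.35 with Tspan8 and 6.33 with Cea1, a difference of -4.98 (SE 0.39, limma adjusted p = 2.1e-10). Lrmp, another member of the tuft cell list, changed by 2.54 and 6.14, a difference of -3.60 (SE 0.31, limma adjusted p = 7.4e-10). Lrmp averaged 12.85 in Tspan8-positive and 13.23 in Cea1-positive cells, and 10.30 and 7.09 in the matching negative cells. For the remaining 3 genes the Tspan8 effect did not pass in this fit. The secretoglobin Scgb2b27 was at -1.44 with Tspan8 (limma adjusted p = 0.12) and 3.30 with Cea1, a difference of -4.74 (SE 1.04, limma adjusted p = 0.0013). The chemokine Ccl4 was at -1.23 with Tspan8 (limma adjusted p = 0.098) and 3.06 with Cea1, a difference of -4.30 (SE 0.85, limma adjusted p = 0.00039). The cytokine Il1b was at -0.95 with Tspan8 (limma adjusted p = 0.26) and 2.62 with Cea1, a difference of -3.58 (SE 0.92, limma adjusted p = 0.0065). These 10 genes were chosen by the size of the difference.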

How the results depend on the processing

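The higher signal of Tspan8 in Tspan8-positive cells held its direction and stayed past the threshold in all 16 alternatives run. Over the alternatives to the call rule, genes higher numbered 3466 to 4374 and genes lower 4317 to 5088, and asking for at least 2-fold, chosen after the data were seen, left 1461 and 1831. With the replicate number as a replicate block the counts were 4207 higher and 5088 lower, and the deviations of same-numbered arrays correlated at 0.084, 0.090 and 0.096, each array best with its own number, a hint from the data and not from the design. For the difference between the Tspan8 and Cea1 effects, the authors' values gave 1669 genes higher and median scaling 893 lower. The cause of these shifts was not tested. Without background correction, list medians became 0.12 (tetraspanins and Tspan8 partners), -0.98 (mTEC maturation), 2.56 (cornified keratinocyte), 1.57 (tuft cell), 0.63 (microfold cell), 0.45 (mucins, trefoil factors and goblet cell), -0.23 (salivary and lacrimal), -0.81 (endocrine), -0.82 (milk proteins), -0.70 (skeletal muscle), 0.096 (lineage transcription factors), -1.56 (proliferation), -0.35 (cortical thymic epithelium), -0.17 (B cell) and -0.15 (fibroblast and pericyte). Members called lower numbered 1 (B cell) in that setting. With the authors' normalized values, list medians became 2.84 (cornified keratinocyte), 1.77 (tuft cell), 0.74 (microfold cell), -0.25 (salivary and lacrimal), -0.95 (endocrine), -0.99 (milk proteins), -0.84 (skeletal muscle), 0.10 (lineage transcription factors), -1.80 (proliferation), 0.025 (interferon response), -0.44 (cortical thymic epithelium), -0.17 (B cell) and -0.20 (fibroblast and pericyte). Members called lower numbered 4 (endothelium) in that setting. The sign turned for Serpinc1 (-0.0034) in that setting. With median scaling, list medians became 0.34 (tetraspanins and Tspan8 partners), -1.01 (mTEC maturation), -0.996 (MHC class II presentation), 2.58 (tuft cell), 0.38 (intestinal enterocyte), 1.44 (microfold cell) and 0.86 (mucins, trefoil factors and goblet cell). Members called higher numbered 1 (mTEC maturation) in that setting. Members called lower numbered 1 (microfold cell) in that setting. The sign turned for Cela2a (0.15), Ghrl (0.011), Klk5 (0.051), Lce3c (0.097), Rsad2 (0.20), Serpinc1 (-0.0081), Spib (0.066) and Tnfrsf11a (0.16) in that setting. With the 6 arrays normalized alone, list medians became 2.45 (tuft cell) and 1.34 (microfold cell). Without a detection filter, where more genes were tested, list medians became 2.12 (tuft cell), -0.46 (salivary and lacrimal), -0.94 (endocrine), -1.66 (milk proteins), -0.53 (cortical thymic epithelium) and -0.22 (B cell). Members called higher numbered 0 (cortical thymic epithelium) in that setting. Members called lower numbered 1 (B cell) in that setting. With detection on all 3 arrays of a group, the list median became -2.09 (milk proteins). In a fit over all 12 groups, members called higher numbered 2 (salivary and lacrimal) and 0 (cortical thymic epithelium). Members called lower numbered 1 (microfold cell), 1 (B cell) and 1 (endothelium) in that setting. With array weights, the list median became 1.23 (microfold cell). The sign turned for Ghrl (0.034) in that setting. With the replicate block, members called higher numbered 1 (mTEC maturation). Leaving out each array in turn, list medians ran from -2.10 to -1.70 for milk proteins, -0.69 to -0.39 for fibroblast and pericyte, 1.15 to 1.40 for microfold cell, -0.66 to -0.47 for salivary and lacrimal, 0.058 to 0.31 for interferon response, 2.16 to 2.42 for tuft cell, -0.13 to 0.37 for dendritic cell and macrophage and -1.44 to -1.01 for mTEC maturation. Counts of members called ran from 1 to 2 for lower in airway secretory and surfactant, 0 to 1 for higher in cortical thymic epithelium, 1 to 2 for lower in B cell, 1 to 3 for lower in endothelium, 0 to 1 for higher in thymocyte, 0 to 1 for higher in mTEC maturation, 1 to 2 for higher in endocrine and 0 to 1 for higher in fibroblast and pericyte. Genes that did not pass the test and turned sign when an array was left out ran from -0.025 to 0.097 for Cd8b1, -0.11 to 0.052 for Cela2a, -0.17 to 0.063 for Csf1r, -0.17 to 0.20 for Cspg4, -0.16 to 0.018 for F2, -0.056 to 0.077 for Jun, -0.25 to 0.042 for Lce3c, -0.055 to 0.21 for Scg5, -0.047 to 0.13 for Serpinc1, -0.0092 to 0.25 for Tcf7l2, -0.11 to 0.066 for Tnfrsf11a, -0.040 to 0.082 for Vwf, -0.27 to 0.18 for Btn1a1, -0.25 to 0.20 for Ghrl, -0.10 to 0.070 for Rsad2, -0.013 to 0.25 for Bcl11b, -0.082 to 0.74 for C1qa and -0.011 to 0.31 for Mx1. Scan or slide as a block was not run, since the headers give none. The number of arrays, signal over background for dim probes and the top of the scale for the brightest probes limit these values.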

Other observations

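Gene families wider than the lists above were counted by symbol, in a choice made after the values were seen, against the same shares of all genes (25.4% higher and 31.0% lower). Among small proline-rich proteins, which build the cornified envelope, 13 of 15 were higher and 1 lower, with Sprr2d at 3.86, and similar copies in this family may share signal. Of skin-type kallikreins, proteases that shed corneocytes, 8 of 12 were higher and 2 lower, with Klk13 at 3.63 and Klk4 at -2.95. UDP-glucuronosyltransferases, which conjugate drugs and hormones, were higher in 10 of 14 cases and lower in 1, with Ugt1a10 at 3.03, although Ugt1a genes share exons. Of cytochrome P450 genes 28 of 61 were higher and 13 lower. Of aquaporins 3 of 10 were higher and 4 lower, shares near those of all genes, with a median of -0.023. Aqp9 and Aqp4 rose by 4.10 and 4.10 beside Aqp5, while Aqp1 was at -1.51.

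Other families had more members lower than higher. Of 58 cytosolic ribosomal protein genes, 52 were lower and 0 higher, with a median difference of -1.05. Of 9 enzymes of serine and one-carbon metabolism 7 were lower, with Mthfd2 at -2.12 beside Phgdh. Collagens were lower in 23 of 40 cases and higher in 3, histones in 32 of 60 and 5, CC chemokines in 12 of 19 and 3, and salivary kallikreins in 7 of 12 and 2. Of the other families counted, keratins were higher in 23 of 43 cases and lower in 13, with Krt78 at 4.20 and Krt73 at -2.06. Ly6 and uPAR domain proteins were higher in 15 of 24 and lower in 7, clade B serpins in 9 of 13 and 2, claudins in 7 of 21 and 5, and uroplakins in 3 of 6 and 3.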
